A study of Mus musculus with 6 samples.

Results

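The genes that handle glutathione, thioredoxin and reactive oxygen were followed across the 3 stages of the EpH4 model. The set was chosen by symbol and not by expression. It comprised the glutathione S-transferases of the Gst and Mgst families, the glutathione peroxidases (Gpx), the peroxiredoxins (Prdx), the thioredoxins and thioredoxin reductases (Txn, Txnrd), and Gclc, Gclm, Gsr, Gss, Hmox1, Nqo1, Srxn1, Sod1, Sod2, Sod3, Cat, Nfe2l2 and Keap1. Among the 17428 deposited genes, 52 were members and 44 of these passed the filter on low values that left 13893 genes for testing. EpH4 is an immortalized, near-normal mouse mammary epithelial cell line grown with serum and insulin. Untreated cells were the epithelial stage (E), cells kept for 7 days with TGFβ1 were the mesenchymal stage (M), and M cells returned to normal medium for another 4 days were the reverted epithelial stage (RE). Each stage had 2 libraries, here called replicate 1 and replicate 2, and all of them came from this cell line without any other genetic or drug treatment. RE cells had therefore been in culture 4 days longer than M cells. The culture time of the E cells was not given, so it is not known whether they were matched for time.

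Glutathione is a tripeptide made in sequential steps by glutamate-cysteine ligase (catalytic subunit Gclc, modifier subunit Gclm) and glutathione synthetase (Gss), and its oxidized form is returned to the reduced form by glutathione reductase (Gsr). Glutathione transferases join it to reactive or foreign compounds, and glutathione peroxidases use it to remove peroxides. Most peroxiredoxins remove peroxides with electrons from thioredoxin, which thioredoxin reductases recharge. Many of these genes carry antioxidant response elements bound by NRF2 (gene Nfe2l2), a transcription factor that KEAP1 (gene Keap1) holds at low protein levels in unstressed cells, so that NRF2 is regulated largely after its mRNA has been made.

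In E vs. M, M cells had lower mRNA of 6 glutathione transferases, Gsta4, Gstm1, Gstm5, Gstm7, Gstt1 and Mgst1, and 0 members were called higher, where 8.39% of all genes tested were lower and 8.58% higher. In M vs. RE these 6 were called higher in RE cells, and Gsto2 was lower (8.08% and 4.79% of all genes). In E vs. RE, Gstm1, Gstm7, Gclc, Nqo1 and Sod3 were higher in RE cells and Gsto2 was lower (6.2% and 3.17% of all genes). No peroxiredoxin and no gene of the thioredoxin system passed the call in any comparison. A gene was called where the log2 fold change was above 1 in either direction and the Benjamini-Hochberg adjusted p of the limma fit over all genes tested was below 0.01. A positive log2 fold change means a higher level in M cells for E vs. M, and in RE cells for the other comparisons. Each stage enters a pair of comparisons with the same libraries, so their values are given side by side and the calls are not independent of each other.

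The promoters of 5 of the 6 transferases are shown because these genes moved in the same comparisons. Each run is the 250 bases before the outermost annotated start in RefSeq (GRCm38.p6), written 5′ to 3′ on the strand of the gene, with capitals marking a match to a searched motif.
Gstm1 (chr3:108017974-108018223, minus strand): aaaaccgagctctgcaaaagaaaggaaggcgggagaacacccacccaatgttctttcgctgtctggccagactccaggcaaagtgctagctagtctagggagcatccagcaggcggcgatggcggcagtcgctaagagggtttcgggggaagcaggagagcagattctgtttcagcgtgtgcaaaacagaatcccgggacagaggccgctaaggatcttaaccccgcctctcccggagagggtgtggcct
Gstm5 (chr3:107895604-107895853, plus strand): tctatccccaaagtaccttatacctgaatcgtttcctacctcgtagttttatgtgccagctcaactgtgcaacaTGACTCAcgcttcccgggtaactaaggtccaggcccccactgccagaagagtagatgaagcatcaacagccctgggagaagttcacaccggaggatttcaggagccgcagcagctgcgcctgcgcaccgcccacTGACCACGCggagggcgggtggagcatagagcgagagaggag
Gstm7 (chr3:107931818-107932067, minus strand): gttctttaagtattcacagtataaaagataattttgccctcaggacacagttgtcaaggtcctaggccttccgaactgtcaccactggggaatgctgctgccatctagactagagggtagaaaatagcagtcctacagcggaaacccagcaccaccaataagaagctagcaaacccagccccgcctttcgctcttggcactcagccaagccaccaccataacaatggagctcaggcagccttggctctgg
Gstt1 (chr10:75797732-75797981, minus strand): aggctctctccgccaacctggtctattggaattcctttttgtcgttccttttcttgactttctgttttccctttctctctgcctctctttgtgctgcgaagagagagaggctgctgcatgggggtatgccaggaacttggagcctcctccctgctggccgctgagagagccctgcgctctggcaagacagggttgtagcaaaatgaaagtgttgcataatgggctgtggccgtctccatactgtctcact
Mgst1 (chr6:138140277-138140526, plus strand): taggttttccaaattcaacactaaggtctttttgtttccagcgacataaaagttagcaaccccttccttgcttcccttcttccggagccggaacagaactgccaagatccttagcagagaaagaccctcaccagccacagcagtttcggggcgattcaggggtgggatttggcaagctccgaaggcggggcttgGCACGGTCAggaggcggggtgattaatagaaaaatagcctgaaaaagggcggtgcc

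Promoter windows were found for 45 of the 52 members and 7 of the 10 members called in any comparison. The core of the antioxidant response element, TGACNNNGC searched on both strands, was present in 10.16% of all 32851 RefSeq windows of this length and in 9 of the 59 windows of members. In Gstm5 it lay at -42 to -34 from the start and in Mgst1 at -56 to -48 on the reverse strand. The window above held no match in Gstm1, Gstm7 or Gstt1, and a second Gstm7 start had a match at -129 to -121. The other members with a match were Gclm, Prdx1, Sod1, Nfe2l2, Gsta3 and Txnrd1. The AP-1 motif TGANTCA was in 6.749% of all windows and in 6 of the 59 windows of members. Among them was Gstm5 at -176 to -170, and in Prdx1 the motif overlapped the element core. CACCTG, the E-box bound by Snail and Zeb factors, was in 17.22% of all windows and in 7 of the 59 windows of members. The members were Nfe2l2, Gstm2, Gstt4, Gpx4, Gpx6, Txnrd2 and Gsto1. Gstt4 and Gpx6 were not tested and the others were not called. With so few genes, this does not set them apart from the other members. These matches describe letters in a window and do not show that a factor bound there.

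Levels are given in ppm of the library total, from the sequenced bases assigned to a gene, after TMM scaling. The libraries held between 35782513 and 47928557 reads' worth of 50 bases, and 3 reads' worth (150 bases) was treated as the floor of detection. Epithelial markers were present in all stages (summed level of 6 markers from 1039 to 1963 ppm), with Krt5 under 1 ppm in all libraries and Cdh1 between 244 and 327 ppm. The sum hides opposite movements, since Cldn7 went from 132 and 117 ppm in E cells to 34.2 and 32.7 ppm in M cells and 51.7 and 47.4 ppm in RE cells, like the transferases lowest in M cells, Krt14 was highest in M cells (666 and 755 ppm), and Krt8 and Krt18 were lowest in RE cells (122 to 133 and 270 to 312 ppm). The sum of 5 mesenchymal markers was 2403 and 5307 ppm in E cells, 18488 and 18191 ppm in M cells, and 11665 and 10649 ppm in RE cells. Of the markers of other cells, the fibroblast list (Col1a1, Pdgfra and Dcn) moved from 50.5 to 51.4 ppm in E cells to 472 to 585 ppm in M cells and 280 to 367 ppm in RE cells, through Col1a1. Pdgfra (92.2 and 76.1 ppm) and Dcn were highest in RE cells, and Dcn, at 0.496 and 0.301 ppm in E cells, at or under the floor in both M libraries and at 3.79 and 1.74 ppm in RE cells, had the order of stages of Gstm1 and Gstm7. The leukocyte list went from 6.82 to 10.6 ppm in E cells to 33.1 to 36.9 ppm in M cells and 7.32 to 7.43 ppm in RE cells, through Csf1r. Cd68 did not move with it (5.20 and 9.18 ppm in E cells, 7.20 and 6.77 ppm in M cells, 5.17 and 5.98 ppm in RE cells). Cd3e and Ptprc were at or under the floor in all libraries. The endothelial list was at 0.370 to 0.560 ppm in E cells, 2.71 to 2.73 ppm in M cells, through Cdh5, and 0.493 to 0.497 ppm in RE cells. The adipocyte list (Fabp4 and Adipoq) was at 9.03 and 3.10 ppm in E cells, 0.0561 and 0.0728 ppm in M cells, and 2.22 and 1.87 ppm in RE cells, all but Fabp4 at or under the floor, and so was lowest in M cells like the transferases described below. The part of other cells in the results was not tested, and in bulk RNA fewer cells expressing a gene and less RNA per cell cannot be told apart.

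The E libraries differed from each other in these genes. Replicate 1 was above replicate 2 in 40 of the 44 members tested, with a median log2 difference of 0.39, whereas over all genes tested replicate 1 was higher in 51.5% and the median was 0.02. The same count was 33 of 44 in M cells and 15 of 44 in RE cells, with medians of 0.10 and -0.04. Over all genes tested, replicate 1 was higher in 57.8% in M cells and 53.1% in RE cells, with medians of 0.04 and 0.01. E replicate 2 was also the E library with the higher mesenchymal marker sum given above, almost all of it Fn1 (2379 and 5276 ppm in E replicates 1 and 2). Zeb1 (3.52 and 6.11 ppm), Zeb2 (10.9 and 17.7 ppm) and Cdh2 (2.89 and 4.08 ppm) were higher in E replicate 2 too, whereas Vim was lower in it (6.52 and 3.16 ppm). The share of this difference that belongs to the cells or to the libraries was not tested, and each comparison with E cells below is also given without each E library where that changed the call.

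**Figure D1:**
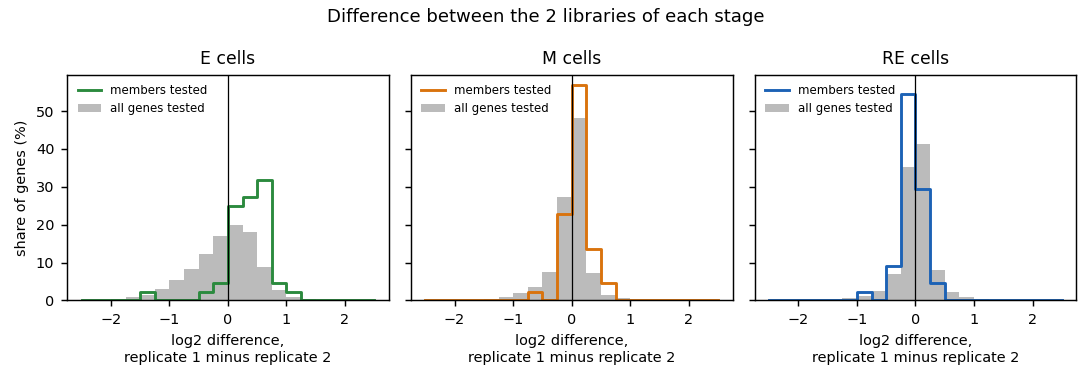
Distribution of the log2 difference between replicate 1 and replicate 2 (x axis) within each stage, as a share of genes in percent (y axis), for the 44 members tested (line) and all 13893 genes tested (grey). The line for E cells sits to the right of 0 (median 0.39), whereas those for M and RE cells are centred near 0 (0.10 and -0.04).

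Glutathione transferases were the largest class, with 23 members, of which 17 were tested. In E vs. M 0 were called higher and 6 lower, that is 35.3% of those tested, where 17% of all genes were called in either direction. In M vs. RE 6 were higher and 1 lower (41.2%, against 12.9% of all genes). In E vs. RE 2 were higher and 1 lower (17.6%, against 9.37%). The median log2 fold change of the tested transferases was -0.73 for E vs. M, 0.98 for M vs. RE and 0.17 for E vs. RE, beside medians of 0.00, -0.02 and 0.01 over all genes tested.

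**Figure D2:**
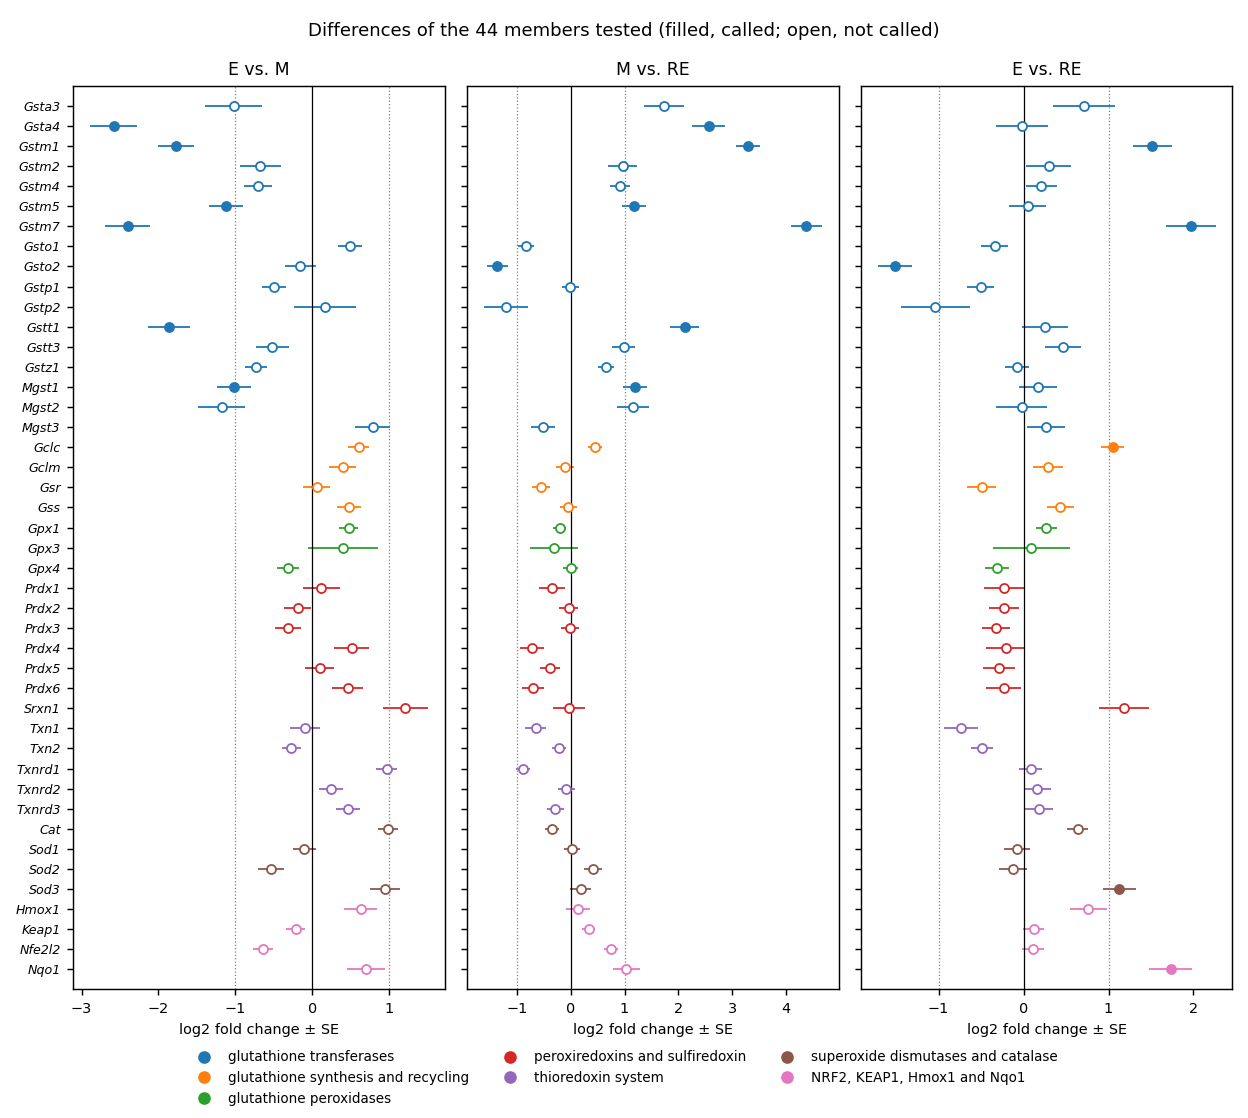
Log2 fold change with its standard error (x axis) of each of the 44 members tested (y axis, grouped and coloured by role) for E vs. M, M vs. RE and E vs. RE. Filled points were called and dotted lines mark a log2 fold change of 1 either way. The filled points in the left and middle panels are all transferases, 6 on the left and 7 in the middle.

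Gsta4, an alpha-class enzyme known for conjugating the lipid peroxidation product 4-hydroxynonenal, measured 64.2 and 31.1 ppm in E cells, 7.09 and 7.69 ppm in M cells, and 40.4 and 48.1 ppm in RE cells. The M libraries were far below all others, and the RE libraries lay between the E libraries, which differed from each other by more than the stages E and RE did. The log2 fold change was -2.58 ± 0.31 (SE, adjusted p = 0.000629) in E vs. M, 2.56 ± 0.31 (adjusted p = 0.000822) in M vs. RE and -0.02 (adjusted p = 0.968) in E vs. RE. The M vs. RE call was lost without M replicate 1 (2.51, adjusted p = 0.0115) or RE replicate 2 (2.44, adjusted p = 0.0122). Its neighbour in the genome, Gsta1, shared 90.5% of its 50-base stretches with other genes and was not tested.

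The mu-class genes lie next to each other on chromosome 3, in the order Gstm5, Gstm7, Gstm6, Gstm3, Gstm2, Gstm1 and Gstm4. Gstm1, the mu enzyme typical of liver, measured 12.1 and 7.76 ppm in E cells, 2.9 and 2.64 ppm in M cells, and 27.6 and 28.4 ppm in RE cells. No library of a stage overlapped those of another, and RE cells were the highest. It was lower in M than in E cells (log2 fold change -1.77 ± 0.23, adjusted p = 0.000927), higher in RE than in M cells (3.29 ± 0.23, adjusted p = 6.03e-05) and higher in RE than in E cells (1.52 ± 0.23, adjusted p = 0.00346). The E vs. M call was lost without M replicate 1 (adjusted p = 0.0104) or 2 (adjusted p = 0.0131), and the E vs. RE call without any of the M or RE libraries (1.5 to 1.54, adjusted p from 0.0118 to 0.0468), whereas the M vs. RE call held without each of the 6 libraries. Of the 50-base stretches of Gstm1, 18.88% were shared with other genes, mostly Gstm2-ps1, so its value is less certain than those of the other called members, which shared 0.5322% (Gstm7) or none.

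Gstm7, another mu-class gene, was low: 0.944 and 0.660 ppm in E cells, 0.0719 and 0.0650 ppm in M cells, and 3.52 and 3.26 ppm in RE cells. Both M libraries were at the floor. In reads' worth, E cells were 11.2-fold above M cells (exact 95% interval 4.87 to 31.6, counting error only) and RE cells 47.0-fold above M cells (21.3 to 129). The fitted log2 fold changes were -2.4 ± 0.29 (adjusted p = 0.000673), 4.37 ± 0.29 (adjusted p = 5.01e-05) and, in E vs. RE, 1.97 ± 0.29 (adjusted p = 0.00315). Those against M cells depend on the pseudocount, and with 1 ppm in its place Gstm7 in E vs. M was -0.75 and not called. In E vs. RE the call was lost without any M or RE library, with adjusted p between 0.0101 and 0.0529 and log2 fold changes from 1.92 to 2.02.

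Gstm5 was the most abundant mu-class mRNA per length of exon in E cells (35.9 ppm per kb, beside 7.28 for Gstm1). It measured 43.4 and 28.1 ppm in E cells, 17.6 and 14.5 ppm in M cells, and 37.6 and 34.5 ppm in RE cells, so that M libraries lay below all others and RE libraries within the range of E cells. Its log2 fold change was -1.13 ± 0.22 (adjusted p = 0.00587) for E vs. M and 1.17 ± 0.22 (adjusted p = 0.00635) in M vs. RE, and 0.05 (adjusted p = 0.89) in E vs. RE. The E vs. M call was lost without any library other than E replicate 2, at -0.81 without E replicate 1 and with adjusted p from 0.018 to 0.0589 without an M or RE library. The M vs. RE call was lost without any M or RE library (1.03 to 1.31, adjusted p from 0.0334 to 0.0679). Among the rest of the cluster, Gstm2 and Gstm4 were not called, and Gstm3 and Gstm6 were not tested. Gstm4, picked here after its values were seen, had log2 fold changes of -0.70 (adjusted p = 0.0191) for E vs. M and 0.91 (adjusted p = 0.00857) in M vs. RE.

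Gstt1, a theta-class enzyme with a preference for small halogenated compounds, measured 8.14 and 5.01 ppm in E cells, 1.92 and 1.47 ppm in M cells, and 7.86 and 7.41 ppm in RE cells. M cells were again the lowest and the RE libraries lay between the E libraries. The log2 fold change was -1.86 ± 0.27 (adjusted p = 0.00156) in E vs. M, 2.12 ± 0.27 (adjusted p = 0.00109) in M vs. RE and 0.25 (adjusted p = 0.509) in E vs. RE. The E vs. M call was lost without M replicate 1 (-2.05, adjusted p = 0.0104) or 2 (-1.68, adjusted p = 0.0192). The M vs. RE call was lost without M replicate 2 (1.93, adjusted p = 0.0147), RE replicate 1 (2.08, adjusted p = 0.018) or RE replicate 2 (2.16, adjusted p = 0.0135). Its neighbour Gstt3 on chromosome 10 was not called, but in M vs. RE it came into the call without E replicate 2 (1.01) and with library totals as the scaling (1.19), and Gstt4 and Gstt2, next in order, were not tested.

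Mgst1, a membrane-bound microsomal transferase that also reduces lipid hydroperoxides, measured 63.6 and 38.8 ppm in E cells, 24.4 and 24.6 ppm in M cells, and 57.4 and 54.4 ppm in RE cells. The M libraries were nearly equal and below the others. Its log2 fold change of -1.02 ± 0.22 in E vs. M (adjusted p = 0.00917) was just past the threshold, and the value in M vs. RE was 1.19 ± 0.22 (adjusted p = 0.0062). Without E replicate 1 the former was -0.66, and without any M or RE library its adjusted p lay between 0.0259 and 0.0644. The M vs. RE call was likewise lost without any M or RE library (1.15 to 1.23, adjusted p from 0.0452 to 0.0637). Mgst2, whose product also makes leukotriene C4 and which is given here after its values were seen, had log2 fold changes of -1.18 (adjusted p = 0.0175) and 1.16 (adjusted p = 0.0241) and was not called. Leaving out E replicate 2 brought it into the call in both (-1.48 and 1.18), as did E replicate 1 in the latter (1.16). Mgst3 was called higher in M cells, at 1.13, only without E replicate 1.

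Gsto2 and Gsto1 are adjacent omega-class genes on chromosome 19, whose enzymes act as reductases more than as conjugating transferases. Gsto2 measured 5.75 and 5.44 ppm in E cells, 5.54 and 4.52 ppm in M cells, and 1.91 and 1.86 ppm in RE cells. The E and M libraries overlapped and both RE libraries were lower. It was the only member called lower in RE cells (log2 fold change -1.36 ± 0.20, adjusted p = 0.00212, against M cells and -1.52 ± 0.20, adjusted p = 0.00211, against E cells). Both calls were lost without either RE library (adjusted p from 0.0242 to 0.0327) and the former also without M replicate 1 (-1.22, adjusted p = 0.0342) or 2 (-1.51, adjusted p = 0.0154).

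Gsto1, the transferase with the highest level, measured 358 and 284 ppm in E cells, 476 and 422 ppm in M cells, and 251 and 253 ppm in RE cells. The stages did not overlap, with M cells the highest, but no difference passed the fold threshold (M vs. RE, log2 fold change -0.83 ± 0.16, adjusted p = 0.00615). Per kb of exon it was at 272, 380 and 213 ppm in the mean of E, M and RE cells, against 70.0, 49.3 and 49.0 ppm for Gstp1, the next transferase in each stage. After these came Gsta4 (48.8 ppm per kb) in E cells, Mgst3 (25.6) in M cells and Gsta4 (45.3) in RE cells, and the library ranges of Gstp1 and Gsta4 overlapped on this scale in E and RE cells. Gstp1 shared 33.74% of its 50-base stretches with other genes, chiefly its copy Gstp2, and neither was called.

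**Figure D3:**
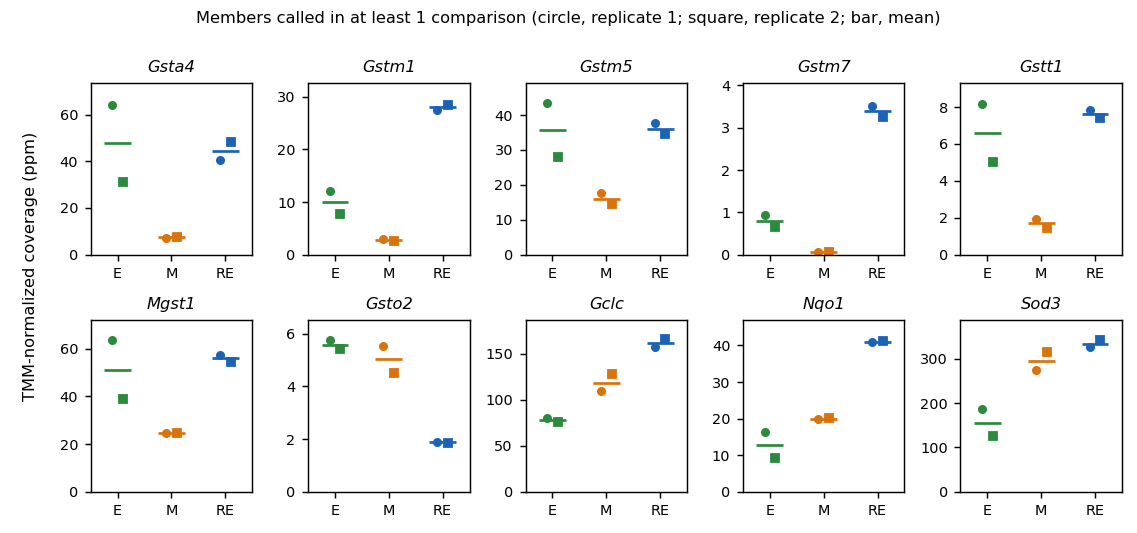
TMM-normalized coverage in ppm (y axis, from 0) in E, M and RE cells (x axis) of the 10 members called in at least 1 comparison, with each library as a point and the mean as a bar. In the first 6 panels the M libraries lie below all others, in Gsto2 the RE libraries are lowest, and in Gclc, Nqo1 and Sod3 E cells are lowest and RE cells highest.

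Of the 4 genes for glutathione synthesis and recycling, Gclc was called, and only in E vs. RE. Gclc, which catalyses the rate-limiting step, measured 79.9 and 76.0 ppm in E cells, 110 and 127 ppm in M cells, and 157 and 165 ppm in RE cells. The stages did not overlap and the level was lowest in E and highest in RE cells. The log2 fold change was 0.60 ± 0.13 (adjusted p = 0.00946) in E vs. M, 0.45 (adjusted p = 0.0374) in M vs. RE and 1.05 ± 0.13 (adjusted p = 0.00179) in E vs. RE, and the last was not called without RE replicate 1 (log2 fold change 1.08, adjusted p = 0.0339) or 2 (1.01, adjusted p = 0.0298) or with library totals as the scaling (0.95).

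Gclm, the modifier subunit, measured 102 and 75 ppm in E cells, 119 and 111 ppm in M cells, and 99.8 and 115 ppm in RE cells, and E and RE libraries overlapped. Gss measured 39.8 and 30.9 ppm, 50.5 and 47.0 ppm, and 47.8 and 46.9 ppm in the same order, with its lowest adjusted p (0.0447) in E vs. M. Gsr measured 250 and 199 ppm in E cells, 248 and 216 ppm in M cells, and 143 and 175 ppm in RE cells. Both RE libraries of Gsr lay below the others, and no difference of these 3 genes was called.

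The NRF2 axis genes were Nfe2l2, Keap1 and the inducible enzymes Hmox1 and Nqo1, and only Nqo1 was called. Nqo1, which reduces quinones by a pair of electrons at a time, measured 16.4 and 9.23 ppm in E cells, 19.9 and 20.1 ppm in M cells, and 40.9 and 41.2 ppm in RE cells. No stages overlapped, and the M and RE replicates were nearly equal while those of E cells were not. Its log2 fold change was 0.70 ± 0.25 (adjusted p = 0.0578) in E vs. M, 1.03 ± 0.25 (adjusted p = 0.018) in M vs. RE and 1.73 ± 0.25 (adjusted p = 0.00299) in E vs. RE. Without E replicate 1 the E vs. M difference was 1.11 and was called. The M vs. RE difference was called without E replicate 1 (1.03) or 2 (1.06), and the E vs. RE call was lost without any M or RE library (1.73 to 1.74, adjusted p from 0.011 to 0.0408).

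Nfe2l2 itself measured 185 and 188 ppm in E cells, 129 and 112 ppm in M cells, and 200 and 203 ppm in RE cells. The M libraries were below the others, with log2 fold changes of -0.64 ± 0.13 (adjusted p = 0.0068) for E vs. M and 0.75 ± 0.13 (adjusted p = 0.00437) in M vs. RE, so the adjusted p passed and the fold did not. Keap1, whose product targets NRF2 for degradation, measured 66.8 and 62.5 ppm in E cells, 55.3 and 55.9 ppm in M cells, and 70.5 and 69.6 ppm in RE cells, a narrow range with no call. Hmox1, which breaks down heme, measured 86.5 and 52.6 ppm in E cells, 105 and 103 ppm in M cells, and 116 and 113 ppm in RE cells. Both later stages lay above E cells for Hmox1, but it was not called (log2 fold change 0.63, adjusted p = 0.0534, in M cells and 0.76, adjusted p = 0.0358, in RE cells against E cells), and without E replicate 1 it was called in E vs. RE at 1.12.

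The superoxide dismutases turn superoxide into peroxide and catalase (Cat) removes peroxide, and of these 4 genes Sod3 was called in E vs. RE. Sod3, the secreted enzyme, measured 186 and 126 ppm in E cells, 275 and 315 ppm in M cells, and 326 and 342 ppm in RE cells. All M and RE libraries were above the E libraries. The log2 fold change was 0.94 ± 0.19 (adjusted p = 0.00728) in E vs. M, 0.18 (adjusted p = 0.517) in M vs. RE and 1.12 ± 0.19 (adjusted p = 0.00575) in E vs. RE. The E vs. RE value was 0.85 and not called without E replicate 2, its call was also lost without any M or RE library, where its adjusted p lay between 0.018 and 0.0625, and E vs. M was called at 1.22 without E replicate 1.

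Cat measured 97.5 and 86.9 ppm in E cells, 187 and 177 ppm in M cells, and 141 and 145 ppm in RE cells. The stages did not overlap, with M cells highest. The log2 fold change in E vs. M was 0.98 ± 0.13 (adjusted p = 0.000932), just under the fold threshold, and it was called at 1.06 without E replicate 1. In E vs. RE it was 0.64 ± 0.13 (adjusted p = 0.0098). Sod1, the cytosolic enzyme, was between 30.6 and 37.8 ppm in all libraries with overlapping stages. Sod2, the mitochondrial enzyme, measured 95.2 and 70.4 ppm in E cells, 57.8 and 55.1 ppm in M cells, and 72.4 and 77.9 ppm in RE cells, with M cells lowest and no call.

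In the thioredoxin system 0 of 5 tested genes and among the peroxiredoxins with sulfiredoxin 0 of 7 were called in any comparison, and the median log2 fold change in M vs. RE was -0.28 and -0.35. With so few genes, 0 calls do not set these classes apart from all genes, of which 9.37% to 17% were called. Txnrd1, the cytosolic thioredoxin reductase, had a difference past the test but under the fold threshold. It measured 194 and 175 ppm in E cells, 377 and 343 ppm in M cells, and 186 and 205 ppm in RE cells. Both M libraries lay well above the others, which overlapped. The log2 fold change was 0.97 ± 0.14 (adjusted p = 0.00131) for E vs. M and -0.88 ± 0.14 (adjusted p = 0.00251) in M vs. RE, and without E replicate 1 the former was called at 1.04. Txn1, cytosolic thioredoxin, measured 147 and 99.1 ppm in E cells, 119 and 108 ppm in M cells, and 67.5 and 77.1 ppm in RE cells, with RE cells lowest. It was not called, at -0.65 (adjusted p = 0.0414) in M vs. RE and -0.74 (adjusted p = 0.0276) in E vs. RE, the latter called at -1.02 without E replicate 2.

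Srxn1, sulfiredoxin, which repairs over-oxidized peroxiredoxins, measured 2.5 and 1.87 ppm in E cells, 5.64 and 4.69 ppm in M cells, and 3.85 and 6.54 ppm in RE cells. All M and RE libraries were above E cells, and the RE libraries differed most from each other. Its log2 fold changes of 1.21 ± 0.29 in E vs. M and 1.18 ± 0.29 in E vs. RE passed the fold but not the test (adjusted p = 0.0142 and 0.0221), and both were called without E replicate 1 (1.41 and 1.38). Prdx6, the peroxiredoxin with the highest mean ppm over all libraries though not in E or RE cells, where Prdx1 was above it, measured 229 and 159 ppm in E cells, 285 and 242 ppm in M cells, and 148 and 179 ppm in RE cells, and its difference of -0.70 (log2) in M vs. RE was not called (adjusted p = 0.0355).

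Of the 5 glutathione peroxidases 3 were tested and none was called. Gpx1, the cytosolic enzyme, measured 82.1 and 74.1 ppm in E cells, 108 and 108 ppm in M cells, and 92.6 and 95.4 ppm in RE cells. Its stages did not overlap, with M cells highest (adjusted p = 0.0191 in E vs. M). Gpx4, which removes lipid peroxides within membranes, had 34.74% of its 50-base stretches in other genes, chiefly the pseudogene Gpx4-ps2, and ranged from 22.4 to 30.6 ppm.

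**Figure D4:**
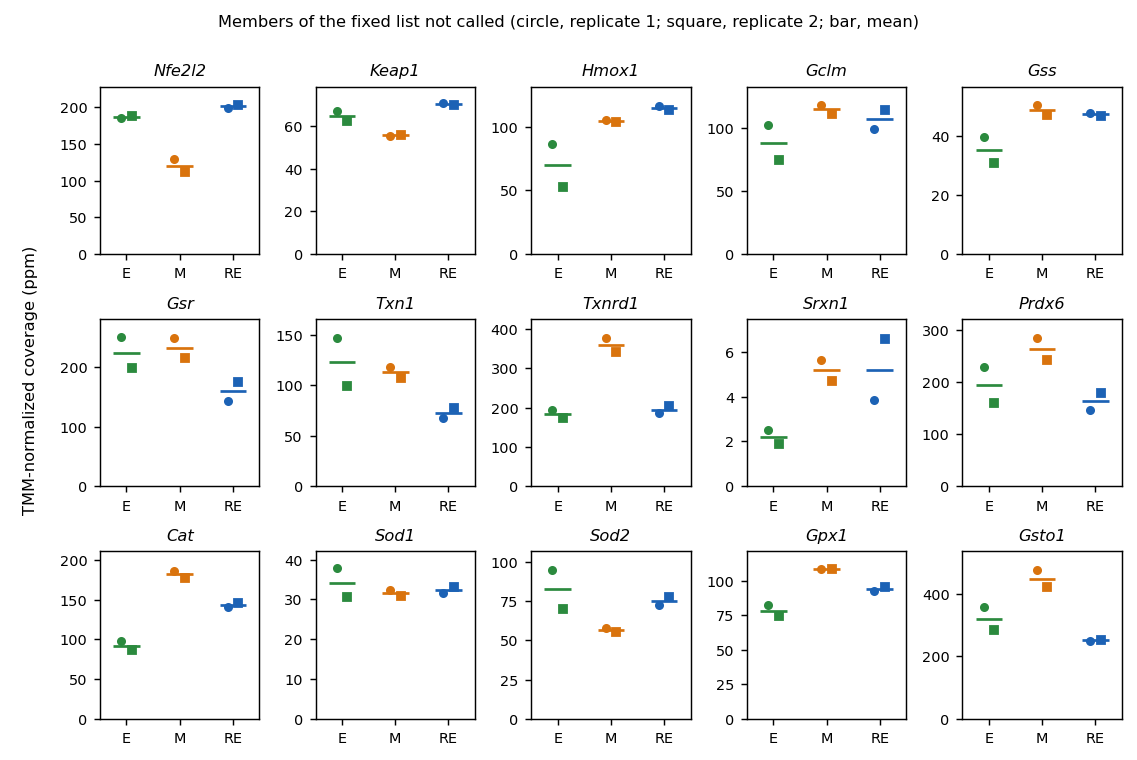
TMM-normalized coverage in ppm (y axis, from 0) in E, M and RE cells (x axis) of 15 members that were described by choice of role or level and were not called, with each library as a point and the mean as a bar. Txnrd1, Cat and Gsto1 were highest in M cells and Nfe2l2 and Sod2 lowest, whereas Txn1 and Gsr were lowest in RE cells.

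Over all 44 members tested, 0 were higher and 6 lower in E vs. M (13.6%), 6 higher and 1 lower in M vs. RE (15.9%), and 5 higher and 1 lower in E vs. RE (13.6%), near the 17%, 12.9% and 9.37% of all genes called in either direction. The median log2 fold change was -0.10, -0.01 and 0.10. Without E replicate 1, the E vs. M log2 fold changes of Cat, Mgst3, Nqo1, Sod3, Srxn1 and Txnrd1 lay between 1.04 and 1.41. The 0 members called higher in E vs. M therefore depended on this library. Those of Gstm5 and Mgst1 were then -0.81 and -0.66. Without M replicate 1 or 2, the E vs. M calls of Gstm1, Gstm5, Gstt1 and Mgst1 were lost. Without E replicate 2, the M vs. RE log2 fold changes of Gsta3, Gstt3, Mgst2 and Nqo1 were 1.7, 1.01, 1.18 and 1.06. With all libraries they were 1.7, 0.98, 1.16 and 1.03. These differences came into the call without E replicate 2, and all but that of Gstt3 also without E replicate 1. Calls over all genes in M vs. RE rose too when either E library was left out. The M vs. RE calls of Gstm5, Gsto2 and Mgst1 were lost without any single M or RE library. In E vs. RE, calls were also lost when an M or RE library was left out. Without E replicate 2, Txn1 was at -1.02 and Sod3 at 0.85 in this comparison. Calls over all genes moved too, from 862 higher and 440 lower in E vs. RE to 40 and 4 without RE replicate 1, 122 and 38 without RE replicate 2, and 470 and 203 to 206 without an M library. Without an M library they went from 1166 to between 492 and 519 lower in E vs. M. Leaving out an M or RE library took those of M vs. RE from 1123 to between 421 and 545 higher and from 666 to between 214 and 310 lower. In all, 10 members were called in at least 1 comparison and 34 in none. The 8 members not tested were Gpx2, Gpx6, Gsta1, Gstk1, Gstm3, Gstm6, Gstt2 and Gstt4, of which 2 (Gpx2 and Gstt2) were at or under the floor in all libraries.

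Genes that work with the members were drawn from a list of 138, of which 123 were in the table and 112 were tested. In E vs. M 16 were higher and 13 lower, in M vs. RE 18 were higher and 6 lower, and in E vs. RE 15 were higher and 7 lower, with medians of -0.04, 0.06 and 0.09. Over all genes tested, 17%, 12.9% and 9.37% were called in either direction. These shares also stand beside the counts of the smaller lists below. The 20 with the largest log2 fold change among the 44 called at least once are described here. Without single libraries the calls of Bach2, Txnip and Msrb3 in E vs. M were lost when either M library was left out (adjusted p from 0.0101 to 0.0301) and that of Lox without M replicate 2 (2.4, adjusted p = 0.0179), and that of Duox2 in M vs. RE without M replicate 1 or either RE library (2.66 to 3.35, adjusted p from 0.0114 to 0.022). In E vs. RE the calls of Aldh3a1, Anpep, Akr1c14, Ggt5, Xdh, Txnip, Mt2 and Msrb3 were lost without either RE library and those of Aox1, Sepp1 and Oxr1 without RE replicate 1 (adjusted p from 0.0118 to 0.0819). Those of Anpep, Xdh and Txnip were also lost without either M library (adjusted p from 0.0109 to 0.0137), and that of Xdh at 0.98 without E replicate 1. Differences that came into the call when an E library was left out were those of Duox2 for E vs. M (-1.91 without replicate 2), of Bach2, Mt2, Ncf4 and Nox3 for M vs. RE, and of Bach2, Duox2, Lox and Nox4 for E vs. RE (from 1.04 for Nox4 to 2.55 for Bach2). Loxl2, Ncf4 and Nox3 reached 500 bases only in the M libraries, and the filter needs 2 libraries, so they were not tested when an M library was left out.

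Among enzymes for carbonyls, epoxides and quinones, 2 were higher and 4 lower of 18 tested in E vs. M, 6 higher and 1 lower in M vs. RE, and 3 higher in E vs. RE. Aldh3a1, which oxidizes aldehydes from lipid peroxidation, measured 104 and 56.9 ppm in E cells, 2.14 and 2.13 ppm in M cells, and 319 and 387 ppm in RE cells. Its log2 fold changes were -5.10 ± 0.27 (adjusted p = 1.84e-05), 7.29 ± 0.27 (adjusted p = 9.84e-06) and 2.19 ± 0.27 (adjusted p = 0.00151), the largest among the listed genes in M vs. RE. Akr1c14, a hydroxysteroid dehydrogenase, had the same order of stages, with 4.81 and 3.70 ppm in E cells, 0.741 and 0.657 ppm in M cells, and 16.3 and 16.6 ppm in RE cells (log2 fold changes -2.44, 4.37 and 1.94, adjusted p = 0.000151, 1.57e-05 and 0.00111). Akr1c18, another steroid-reducing enzyme, measured 4.29 and 3.11 ppm in E cells, 0 in both M libraries, and 3.99 and 3.14 ppm in RE cells. Against the floor of 3 reads' worth over the M libraries together, E cells were at least 103-fold higher and RE cells at least 98.8-fold higher.

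Genes for cystine import and for glutathione transport or breakdown went both ways, with 3 higher and 3 lower of 16 tested in E vs. M, 2 higher in M vs. RE, and 3 higher and 3 lower in E vs. RE. Anpep, a surface aminopeptidase that can cleave the cysteinylglycine released from glutathione, measured 6.46 and 4.81 ppm in E cells, 0.0958 and 0.0485 ppm in M cells, and 21.9 and 14.7 ppm in RE cells. It was called in all comparisons (log2 fold changes -5.06, 6.72 and 1.67, adjusted p = 2.61e-05, 1.16e-05 and 0.00595). Ggt6, of the gamma-glutamyltransferase family that starts glutathione breakdown, measured 4.19 and 2.66 ppm in E cells, 0.190 and 0.461 ppm in M cells, and 5.59 and 4.46 ppm in RE cells, with calls for E vs. M (-3.09, adjusted p = 0.000691) and M vs. RE (3.66, adjusted p = 0.000368). Ggt5, of the same family, went the other way, with 0.910 and 0.684 ppm in E cells, 6.23 and 8.15 ppm in M cells, and 5.10 and 3.94 ppm in RE cells, with calls for E vs. M (3.02, adjusted p = 0.000134) and E vs. RE (2.36, adjusted p = 0.00106).

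Of the genes that produce superoxide or peroxide, 5 were higher and 1 lower of 16 tested in E vs. M, 3 higher and 3 lower in M vs. RE, and 2 higher and 1 lower in E vs. RE. Nox4, an NADPH oxidase that releases peroxide, measured 4.70 and 4.22 ppm in E cells, 30.8 and 31.5 ppm in M cells, and 8.91 and 8.73 ppm in RE cells (log2 fold change 2.78 ± 0.16, adjusted p = 2.35e-05, for E vs. M and -1.81 ± 0.16, adjusted p = 0.000161, in M vs. RE). Loxl2 and Lox, lysyl oxidases that cross-link matrix and give off peroxide, were also highest in M cells. Loxl2 passed the filter on low values only through the M libraries (4784 and 4589 bases), as did Nox3 and Ncf4 below. Those genes, among the 5 called higher in E vs. M, were thus tested only because they were high in M cells. Loxl2 measured 0 and 0.0521 ppm in E cells, 2.29 and 2.23 ppm in M cells, and 0.105 and 0.0464 ppm in RE cells, M cells being 92.0-fold above E cells in reads' worth (exact 95% interval 25.1 to 766). Lox measured 0.0254 and 0.0521 ppm in E cells, 0.620 and 0.909 ppm in M cells, and 0.339 and 0.366 ppm in RE cells, M cells being 20.7-fold above E cells (6.76 to 103).

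Nox3, an oxidase of the inner ear, and Ncf4, a cytosolic oxidase subunit typical of phagocytes, were called higher in M cells at very low levels. Both passed the filter on low values only through the M libraries (876 and 1041 bases for Nox3, 775 and 1078 for Ncf4). They were thus tested only because they were high there, and their calls are no independent support for a rise. Ncf4 was at 0 in both E libraries, 0.371 and 0.523 ppm in M cells, and 0.0707 and 0.0455 ppm in RE cells. Nox3 was at 0.00972 and 0 ppm in E cells, 0.420 and 0.505 ppm in M cells, and 0.0423 and 0.0896 ppm in RE cells. With a pseudocount of 1 ppm the E vs. M log2 fold change of Ncf4 (0.53), Nox3 (0.54) and Lox (0.76) did not pass the fold threshold. Of the leukocyte markers given above, Csf1r moved with Ncf4 (1.55 and 1.27 ppm in E cells, 25.8 and 29.9 ppm in M cells, and 2.08 and 1.45 ppm in RE cells). Cd68 did not, with 7.20 and 6.77 ppm in M cells between the 5.20 and 9.18 ppm of E cells. Cd3e and Ptprc were at or under the floor in all libraries. The part of leukocytes in this result was not tested.

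Xdh, Aox1 and Duox2 went the opposite way. Xdh, the purine-degrading xanthine dehydrogenase, measured 165 and 180 ppm in E cells, 47.3 and 46.4 ppm in M cells, and 388 and 328 ppm in RE cells, and was called in all comparisons (-1.88, 2.92 and 1.05, adjusted p = 7e-05, 1.43e-05 and 0.00206). Aox1, aldehyde oxidase, measured 16.0 and 20.8 ppm in E cells, 11.9 and 14.3 ppm in M cells, and 90.5 and 69.6 ppm in RE cells, called in M vs. RE (2.59, adjusted p = 9.67e-05) and E vs. RE (2.11, adjusted p = 0.000667). Duox2, a peroxide-releasing dual oxidase, measured 1.5 and 0.793 ppm in E cells, 0.192 and 0.532 ppm in M cells, and 4.28 and 3.50 ppm in RE cells, and was called in M vs. RE only (3.21, adjusted p = 0.00144). In all 3 genes the RE libraries were the highest.

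Among thiol partners and methionine repair enzymes, 2 were higher and 1 lower of 17 tested in E vs. M, 2 higher in M vs. RE and 3 higher in E vs. RE. Txnip, the inhibitor of thioredoxin, measured 39.0 and 61.0 ppm in E cells, 17.3 and 20.3 ppm in M cells, and 133 and 119 ppm in RE cells, with log2 fold changes of -1.37, 2.74 and 1.36 (adjusted p = 0.00232, 0.000111 and 0.00434). Msrb3, which reduces oxidized methionine, measured 5.07 and 9.69 ppm in E cells, 33.8 and 35.6 ppm in M cells, and 42.9 and 34.8 ppm in RE cells, with calls for E vs. M (2.29, adjusted p = 0.000765) and E vs. RE (2.44, adjusted p = 0.00131). Sepp1, the secreted selenium carrier selenoprotein P, measured 25.4 and 18.2 ppm in E cells, 16.9 and 18.1 ppm in M cells, and 95.7 and 89.6 ppm in RE cells, called in M vs. RE (2.4, adjusted p = 8.44e-05) and E vs. RE (2.10, adjusted p = 0.000493). Txnip and Sepp1 were thus highest in RE cells, as was Msrb3 by mean, with M and RE libraries overlapping.

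Bach2, a transcription factor that represses antioxidant response elements with small Maf partners, was the gene called higher in E vs. M among 12 NRF2 partners and regulators, and 1 of the 12 was lower in each of the other comparisons. It measured 1.07 and 3.15 ppm in E cells, 12.3 and 16.0 ppm in M cells, and 6.99 and 6.51 ppm in RE cells (log2 fold change 2.86 ± 0.43, adjusted p = 0.00177, in E vs. M, at 2.12 without E replicate 1 and 3.58 without E replicate 2). Of 17 other antioxidant or stress genes tested, 2 were higher and 3 lower in E vs. M, 3 higher and 1 lower in M vs. RE, and 3 higher and 1 lower in E vs. RE. Mt2, a metal-binding metallothionein, measured 14.8 and 15.9 ppm in E cells, 2.04 and 3.00 ppm in M cells, and 4.80 and 5.64 ppm in RE cells, lower in E vs. M (-2.58, adjusted p = 0.000158) and in E vs. RE (-1.54, adjusted p = 0.00321). Oxr1, linked to oxidation resistance, measured 154 and 143 ppm in E cells, 101 and 95.1 ppm in M cells, and 530 and 485 ppm in RE cells, higher in M vs. RE (2.37, adjusted p = 2.35e-05) and E vs. RE (1.77, adjusted p = 0.000333). Mt2 was lowest in M cells and stayed below E cells in both RE libraries, and Oxr1 was lowest in M and highest in RE cells. Of 9 genes that supply NADPH, 0 were called in E vs. M, 1 was higher in M vs. RE, and 1 was higher and 1 lower in E vs. RE, and of 7 heme and iron genes 1 was higher and 1 lower in E vs. M and 1 higher in M vs. RE.

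**Figure D5:**
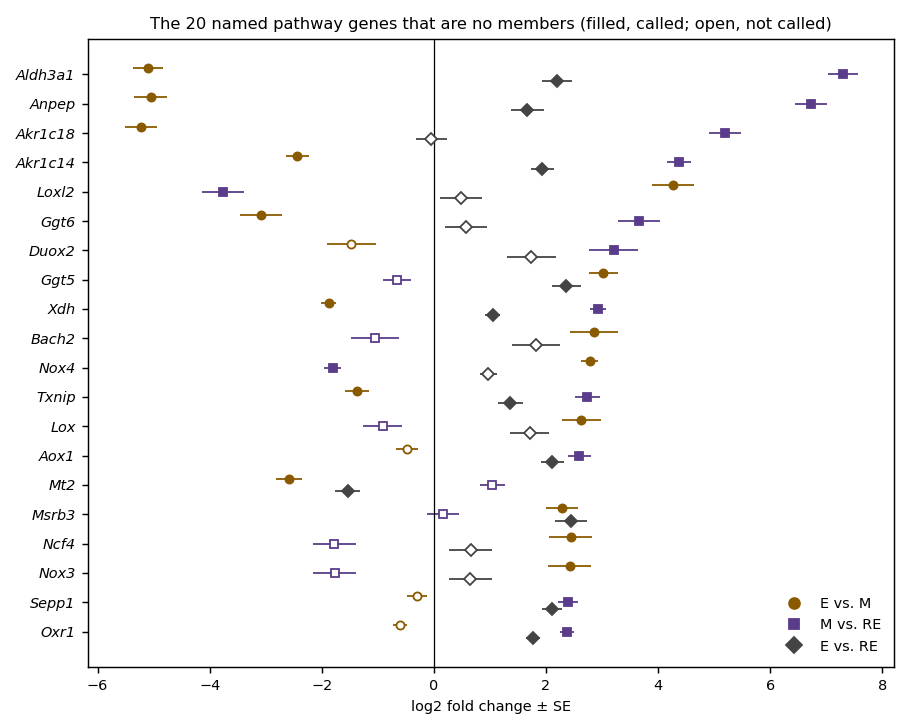
Log2 fold change with its standard error (x axis) of the 20 listed genes that are no members (y axis), in E vs. M (circles), M vs. RE (squares) and E vs. RE (diamonds), filled where called. The points run from -5.23 (Akr1c18, E vs. M) to 7.29 (Aldh3a1, M vs. RE), and those against a group at the floor depend on the pseudocount.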

How the data were processed

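RNA-seq data of EpH4 cells (E, M and RE, 2 libraries each) were used. Per the paper's methods, RNA came from 2 biological replicates per stage (the sample labels speak of 3) and was read on an Illumina Genome Analyzer, and unique reads were mapped to NCBI m37 with Bowtie and TopHat2, the versions and the per-gene summing step being not given in the sources used here. The values the authors deposited are coverage (signal), sequenced bases summed per gene, since between 44.8% and 48.4% of low values are whole multiples of 50, and they are not read counts, so the count test named by the authors, edgeR, was not run. Here coverage was divided by the library total and scaled by TMM computed without weights (trimming 30% of log ratios and 5% of mean levels from either end, R 4.3.3), giving factors from 0.871 to 1.12. The filter kept genes reaching 500 bases in 2 or more libraries, and these were fitted with limma 3.58.1 (trend) on log2(ppm + 0.1), all libraries in 1 fit, stage as the only term. Fold changes are on this scale and understate those of low genes.

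All 6 columns were matched to samples by name and 0 were left over. Replicate numbers were not treated as pairs, because nothing ties them to a shared culture and only 2 numbers exist. With 2 libraries per stage the precision is limited more by replicates than by depth, and floors and intervals cover counting error only. The members and all gene lists were chosen with earlier results of these data known. Members were named if called or if in a fixed list by role, or if the highest in their role. Listed genes outside the set were named if called, up to 20, by size of change. Exon lengths (GENCODE M21), shared 50-base stretches and RefSeq promoters come from another build (GRCm38) than the mapping, and were joined by gene symbol.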

Additional observations from a re-analysis of the deposited data

How the results depend on the processing

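Across 17 alternative settings, 77 single log2 fold changes were recomputed in 1285 combinations, of which 1143 kept their direction and side of the threshold, 118 dropped out of the call, 24 entered it and 0 changed sign. The 77 values had been called in the main fit or, for members, were well away from 0 there. Values near 0, which change sign most easily, were thus left out beforehand. Settings that changed only the filter, the thresholds, the groups in the fit, the block or the weighting of libraries left a fold change as it was. Its sign could not change under them. The looser thresholds could not drop a call, and combinations in which a gene was not tested are not among the 1285. The number of members higher in E vs. M went from 0 to 1 at an adjusted p below 0.05 and to 4 at a fold change of 1.5, which also took the number lower in M vs. RE from 1 to 3. Over all genes these went from 1192 to 1491 and to 1764 higher, and from 666 to 983 lower. With library totals as the scaling, 3 in place of 5 members were higher in E vs. RE (862 to 694 of all genes). With only the 2 groups compared in the fit, 0 members were higher and 0 lower in E vs. RE. Calls over all genes went there from 862 to 368 higher and from 440 to 157 lower. That fit had 9 in place of 6 members higher in M vs. RE (1123 to 1419 of all genes). Library totals moved the median of all genes to -0.29 for E vs. M, 0.18 for M vs. RE and -0.08 for E vs. RE, and the share of calls that were higher from 50.6% to 30.5%, from 62.8% to 73.8% and from 66.2% to 57.1%. Leaving out 1 library at a time gave 0 to 6 members higher and 2 to 7 lower for E vs. M, 2 to 10 and 0 to 1 for M vs. RE, and 0 to 7 and 0 to 2 for E vs. RE. A lone library was then assumed to vary like the other stages, and the number of calls over all genes moved under these settings too. Adding a replicate block gave counts of 0 and 6, 6 and 1, and 5 and 1, the same genes as without it. Same-numbered libraries correlated at 0.27 (E and M), 0.12 (M and RE) and 0.06 (E and RE) in their deviations from the stage means. For the pathway list, checks added after seeing the data and leaving out 1 library gave 4 to 18 higher and 9 to 16 lower for E vs. M, 13 to 22 and 1 to 11 for M vs. RE, and 0 to 21 and 0 to 8 for E vs. RE.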
